A study of Mus musculus with 8 samples.

Results

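The cells described here are lymphatic endothelial cells of a transplanted mouse melanoma with a high joint score for RNA of Npy, Ndufa4l2 and Pgf. The class held 437 cells, which was 10.9% of the 4019 lymphatic cells that passed a gate (95% exact binomial interval 9.93 to 11.9%) and 5.72% of the 7635 cells in the whole matrix. Members were chosen on the RNA itself. A cell of the lymphatic sort entered the gate with fewer than 20 UMIs summed over the pigment cell genes Dct, Tyrp1, Pmel and Tyr, and with at least 1 UMI of the lymphatic genes Prox1, Lyve1 or Mmrn1. UMIs are unique molecular identifiers, each marking 1 captured RNA molecule. Each gated cell was then scored for 5 gene sets by the mean log of 1 plus the UMIs per 10000, put on a z scale over the gated cells. A member had its highest z for Npy, Ndufa4l2 and Pgf, with that z over 0.5. All 3 genes were detected in 113 of the 437 members. 1 further gated cell with many C1qa and C1qb UMIs was left out.

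All cells came from 1 kind of tumor: fragments of MT-ret melanoma carried on the flank by 10 mice of strain C57BL/6N, with neither age nor sex stated in the labels. Blood (BEC) and lymphatic (LEC) endothelial cells, 10000 of each per the labels, were separated by fluorescence-activated sorting, and went into 4 single-cell libraries per sort (10x Chromium, 3′ chemistry v2). No normal tissue, treatment or genotype was compared. The deposited cell names carry the sort and a barcode with no library number, so the LEC sort is 1 sample from pooled animals: values below have no replicate check, no p-value is given, and every interval is at the 95% level and covers counting error only.

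Cells short of oxygen stabilise the hypoxia-inducible factors HIF-1 and HIF-2, transcription factors that are otherwise marked for destruction by oxygen-dependent prolyl hydroxylases and the von Hippel-Lindau protein. Their targets move glucose into glycolysis, remove mitochondria, buffer acid and signal to vessels. Ndufa4l2, a relative of the cytochrome oxidase subunit Ndufa4, is a known HIF-1 target that lowers mitochondrial oxygen use and is also a known pericyte gene. Pgf encodes placental growth factor, a ligand of the VEGF receptor Flt1, and Npy encodes neuropeptide Y, a peptide best known from neurons. Lymphatic endothelium lines the vessels that drain tissue fluid and immune cells, and is defined by the transcription factor Prox1.

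The promoters of 2 of the 3 genes that define the class, Npy and Pgf, and of 2 textbook HIF targets that were high in the members, Bnip3 and Higd1a, are shown because HIF binds DNA at the core letters ACGTG or GCGTG. Each is the 250 bases before an annotated start from RefSeq on GRCm38.p6, 5′ to 3′ on the strand of the gene, with every ACGTG or GCGTG on either strand in capitals. Neighbouring or overlapping matches run together. The stretches lie at chr6:49822460-49822709 on the plus strand for Npy, and on the minus strand at chr12:85177314-85177563 for Pgf, chr7:138909507-138909756 for Bnip3 and chr9:121857797-121858046 for Higd1a. Ndufa4l2 is named only.
Npy: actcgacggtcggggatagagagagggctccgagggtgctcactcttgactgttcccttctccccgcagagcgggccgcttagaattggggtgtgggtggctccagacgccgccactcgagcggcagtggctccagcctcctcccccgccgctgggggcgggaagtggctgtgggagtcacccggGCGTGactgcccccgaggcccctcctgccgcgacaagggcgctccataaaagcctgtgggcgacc
Pgf: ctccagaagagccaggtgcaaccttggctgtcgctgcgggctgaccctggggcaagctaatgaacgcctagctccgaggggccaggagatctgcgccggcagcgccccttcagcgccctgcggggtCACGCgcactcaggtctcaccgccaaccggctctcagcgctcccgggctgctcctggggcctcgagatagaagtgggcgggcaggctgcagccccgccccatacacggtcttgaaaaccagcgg
Bnip3: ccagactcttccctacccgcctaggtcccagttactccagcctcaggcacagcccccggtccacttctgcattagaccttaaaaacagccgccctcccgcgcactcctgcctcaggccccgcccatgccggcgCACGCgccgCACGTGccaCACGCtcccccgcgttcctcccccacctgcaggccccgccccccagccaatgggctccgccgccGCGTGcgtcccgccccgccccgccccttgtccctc
Higd1a: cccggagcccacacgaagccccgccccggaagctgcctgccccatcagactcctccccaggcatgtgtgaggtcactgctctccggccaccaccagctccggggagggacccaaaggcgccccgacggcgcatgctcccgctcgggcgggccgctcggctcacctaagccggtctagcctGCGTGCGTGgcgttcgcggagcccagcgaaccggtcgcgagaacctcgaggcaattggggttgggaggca

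Npy held 1 match, 65 bases before the start on the plus strand, and Pgf held 1 at the start shown, 124 bases before it on the minus strand, with none at its other start. Bnip3 held 5 matches, at 117, 108, 107, 99 and 35 bases before the start, of which those at 108 and 107 read the same 6 letters on opposite strands. Higd1a held 2 that overlap by 1 base, at 70 and 66 bases. Such letters are common. They occurred in 38.6% of all 32851 promoters of this length and in 58.6% of those whose gene reached 50 CPM, the count of its UMIs per 1000000 UMIs. Promoters of genes at least 2-fold higher in the members held a match in 60.3% of cases, and those of genes at least 2-fold lower in 43.4%. Hypoxia response genes had a match in 20 of 28 promoters, with 17 of their 20 genes found in the table, and glycolysis genes in 26 of 33. A match describes the letters in this window and is not a measured binding site.

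The label was first checked against markers. Prox1 stood at 232 CPM (219 to 245) in the members and 271 in the other 3581 gated cells. Lyve1, a capillary receptor for hyaluronan, stood at 1922 (1886 to 1959) and 2012. Both genes are used by the gate, so finding them in either group is no check. Flt4, the receptor for the lymphatic growth factor VEGF-C, was at 325 and 336 CPM, and Pdpn, podoplanin, at 513 and 422. The gate uses neither of these genes. Of 8 lymphatic markers, among them the gate genes Prox1, Lyve1 and Mmrn1, 7 lay within 2-fold and Fgl2 was 2.36-fold lower (458 against 1083 CPM). Npy is also a gene of sympathetic neurons and Ndufa4l2 of pericytes, and some markers of both were missing. Among 6 neural genes, Th, Dbh, Snap25 and Chga had 0 UMIs in all 437 cells, where 3 UMIs would make 0.528 CPM. Among 5 mural genes, Rgs5, Notch3 and Myh11 had 0 UMIs in them, while Acta2 and Pdgfrb were detected. The other neural genes were detected at low levels, Tubb3 at 11.8 and 13.5 CPM in the members and the others, and Chgb with 4 UMIs in the members and 8 in the others; all 6 neural genes summed to 12.5 and 15.3 CPM. Mural markers summed to 5.81 CPM in the members and 30.5 in the other gated cells. Ptprc, the pan-leukocyte gene CD45, and Adgre1, the macrophage gene F4/80, were also at 0. Pan-endothelial markers were within 2-fold in 5 of 6 cases, and Emcn was lower, with a log2 ratio of -1.66.

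Some genes of other cells moved with the class. Macrophage markers summed to 135 CPM against 22.9. Cd68, a lysosomal protein, was at 109 CPM in the members and 9.69 in the others (11.3-fold, 9.96 to 12.8), and Lyz2, the lysozyme gene of macrophages, at 18.5 and 7.35 (2.52-fold higher), though Lyz2 turned to a ratio of 0.834 when the nearest unsupervised cluster took the place of the class. C1qb was at 4.05 and 3.22 CPM and pan-leukocyte markers together at 7.22 and 3.65. All 3 platelet markers were at least 2-fold higher (Pf4 39.5 against 11.99 CPM, Ppbp 30.3 against 7.39, Itga2b 10.9 against 5.185), with 17.0 to 36.6% of their UMIs in a single member cell, and with the cluster in place of the class the ratio of Itga2b turned to 0.837. The part of other cells in the values below was not tested. The melanocytic gene Dct was at 103 CPM (95.03 to 112) in the members and 107 CPM in the others. The gate limits Dct and the rule limits C1qb in each cell of both groups, so the levels of these genes are no check. Fibroblast markers summed to 235 CPM in the members and 198 in the others, but they did not move together. Of the 5, 2 reached 10 CPM in either group: Dcn had a log2 ratio of 0.45 and Col3a1, on few member UMIs, -5.33. Another 2 of the 5 were at 0 in the members. Keratinocyte markers summed to 17.3 and 8.16 CPM, with Krt10 at a log2 ratio of 1.05.

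Depth was similar on both sides. Members had a median of 11450 UMIs (5460 to 46209) and 1906 genes per cell, and the other gated cells 10509 UMIs (5288 to 49024) and 1889 genes. Mitochondrial UMIs made a median of 2.72% and 3.25%. Of the 4407 LEC-sort cells, 388 did not pass the gate. Of all barcodes, 34 occurred in both sorts, and 7 members carried one of them.

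Npy, Ndufa4l2 and Pgf chose the members, so their levels are a description. Npy (chr6:49822710-49829507, plus strand, GRCm38) stood at 3331 CPM (3284 to 3379) in the members and 30.7 (29.1 to 32.4) in the other gated cells. Its UMIs were spread unevenly: the lowest member had 0, the median 8 and the highest 804, and the highest of the other cells had 84. A Npy UMI was found in 73.0% of members, 9.38% of other gated cells and 0.235% of 2976 gated BEC cells, whose median depth was 19126.5 UMIs; with every cell thinned to 5000 UMIs the shares were 68.4%, 6.98% and 0%. Npy UMIs lay mostly, not only, within the class, which follows in part from choosing the members on Npy. The shares of cells do not say the same of cells with a Npy UMI, since the other gated cells numbered 3581 and the members 437. The 4 other classes and the unclassed cells lay between 19.4 and 45.9 CPM.

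Ndufa4l2 (chr10:127514967-127517154, plus strand) stood at 424 CPM (407 to 441) in the members and 11.3 in the others. The median member had 0 UMIs: one was found in 43.0% of members, 2.76% of the other gated cells and 3.80% of gated BEC cells, and the highest member held 79. Pgf (chr12:85166635-85177790, minus strand) was the most widely found of the class genes, with a UMI in 88.1% of members, a median of 12 and a highest value of 214, at 1879 CPM (1844 to 1915) against 93.5. All 3 genes were detected together in 113 members, 2 of them in 229 and 1 alone in 95, which was Pgf in 64 of those cells. Depth fell in the same order, with medians of 13094, 11540 and 8772 UMIs per cell.

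The border of the class was soft. The z of the members ran from 0.51 to 5.83 with a median of 2.06, and 206 members (47.1%) also had a z over 0.5 for another gene set. Of 633 gated cells with the class score over 0.5, 69 scored higher for Cd24a and Scn3a, 55 for Tppp3 and Igfbp5, 23 for Lsr, Postn and Foxp2, and 49 for Cd74, Ccl2 and Vcam1. The 21 members within 0.1 above the threshold had 69.3 CPM of Npy and 457 of Pgf, and the 31 cells within 0.1 below it, for which this score was also the highest, had 127 and 344. Bnip3 was 56.7 CPM just inside and 92.4 just outside.

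Across the transcriptome, 3375 genes reached 50 CPM in either group, leaving out the genes of the 5 sets. The members had 148 of these (4.39%) at a level at least 2-fold above the other gated cells and 131 (3.88%) at least 2-fold below. The median log2 ratio of these genes was -0.09. Both counts depend on how the class is drawn: the nearest unsupervised cluster gave 255 and 374, and a score without Npy gave 69 lower genes. These genes were compared in the same cells whose Npy, Ndufa4l2 and Pgf chose the members, so each count stands as a description.

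**Figure D1:**
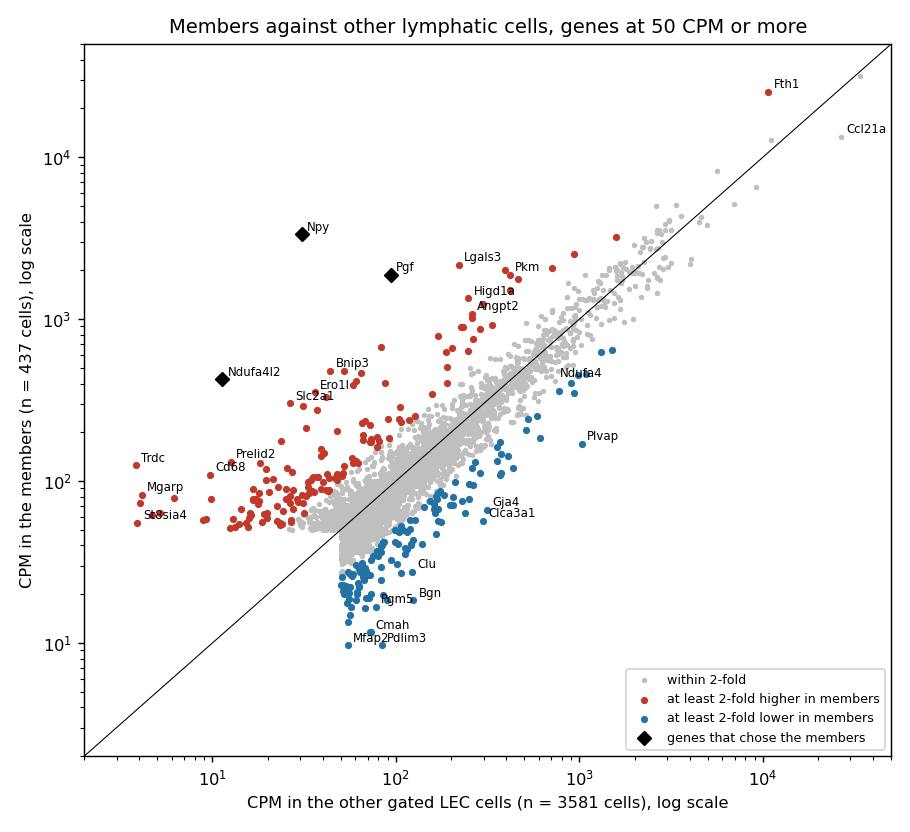
CPM of each gene at 50 CPM or more in the 437 members (vertical, log scale) against the 3581 other gated LEC cells (horizontal, log scale), 1 point a gene, with the 3 genes that chose the members as black diamonds. Npy is farthest from the diagonal, glycolysis and hypoxia genes such as Slc2a1 and Bnip3 lie above it, and Plvap and Gja4 below it.

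The oxygen-sensing machinery itself moved in 3 of 12 measured genes. The prolyl hydroxylases Egln1 and Egln3, which tag HIF for destruction and are HIF targets themselves, were 4.51-fold (4.003 to 5.08; 77.5 against 17.2 CPM) and 4.28-fold higher (3.98 to 4.60; 204 against 47.7 CPM). Egln2, the third of the family, stood at 43.0 CPM against 67.9. Epas1, which encodes the HIF-2 alpha subunit common in endothelium, was 2.74-fold lower (2.32 to 3.25; 26.2 against 71.9 CPM). Hif1a RNA, whose protein is controlled after translation, was at 117 against 84.4 CPM, and Vhl at 23.1 against 11.6 CPM. The median log2 ratio of the list was 0.14, and for genes of the lists, measured where 10 CPM or more was reached in either group, the share of all 8083 such genes was 4.33% at least 2-fold higher and 5.77% at least 2-fold lower.

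Hypoxia response genes stood higher as a group. Of 20 measured genes of the list 17 were at least 2-fold higher and none lower, with a median log2 ratio of 2.11. With the list's minimum level unchanged, every other setting tried gave 17 to 19 of the 20. Bnip3, which marks mitochondria for removal, was 10.9-fold higher (10.3 to 11.6; 480 against 44.0 CPM); the median member held 3 UMIs and the highest 68, while the median of the other cells was 0. Its relative Bnip3l stood at 637 against 246 CPM. Higd1a, a mitochondrial inner membrane protein, was 5.44-fold higher (1344 against 247 CPM), with a median of 11 UMIs in the members and 2 in the others.

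Adm encodes adrenomedullin, a peptide needed for lymphatic growth. It was 3.99-fold higher (3.86 to 4.13; 899 against 225 CPM), yet the groups overlapped: the highest member held 220 UMIs and the highest other cell 254. The receptor that binds adrenomedullin, Calcrl, was at 112 against 84.8 CPM and its partner Ramp2 at 779 against 974. Hilpda and Plin2, both of lipid droplets, were 9.22-fold and 2.90-fold higher, Ankrd37 was 7.92-fold and Fam162a 4.65-fold higher, and Ero1l, an oxidase of the endoplasmic reticulum, was 9.79-fold higher. Ndrg1 stood at 868 against 286 CPM. Car9, a membrane carbonic anhydrase that exports acid, was 9.54-fold higher but at only 20.4 CPM, with 23.3% of its UMIs in 1 cell. Pdk1, the kinase that keeps pyruvate out of mitochondria, was 5.47-fold higher and Ak4 7.501-fold. Kdm3a, Mxi1 and Vldlr lay between 3.09-fold and 3.33-fold higher. Ddit4 (1.14-fold), Stc2 (1.81-fold) and Bhlhe40 (1.87-fold) stayed within 2-fold.

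All 17 measured genes of glucose uptake, glycolysis and lactate export were at least 2-fold higher, with a median log2 ratio of 1.84. The glucose carrier Slc2a1 was 11.4-fold higher (10.5 to 12.3; 302 against 26.5 CPM) and the lactate exporter Slc16a3 9.30-fold (8.65 to 10.0; 289 against 31.1 CPM). Hk2, the inducible hexokinase, was 16.7-fold higher from a low level (45.8 against 2.75 CPM), while the constitutive Hk1 was 2.63-fold higher. The abundant enzymes moved less than Slc2a1, Slc16a3 and Hk2, though not less than Hk1. Aldoa was 2.73-fold (2540 against 929 CPM), Ldha 2.92-fold (2073 against 711), Gapdh 3.59-fold (1508 against 420) and Pkm 4.51-fold (1875 against 416) higher. Several of these enzymes have near-identical pseudogenes, and the sources used here do not say how reads shared with them were counted.

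Respiratory chain RNA stayed close to that of the other cells. Of 28 nuclear genes of the respiratory chain and ATP synthase, 27 were within 2-fold, with a median log2 ratio of -0.15. The exception was Cox4i2, the oxygen-regulated form of a cytochrome oxidase subunit, 4.15-fold higher (3.04 to 5.63; 11.8 against 2.84 CPM), beside its constitutive counterpart Cox4i1 at 1300 against 1407 CPM. Ndufa4, singled out after its values were seen because Ndufa4l2 is its relative, had the lowest ratio of the list: 417 CPM in the members and 734 in the others (1.76-fold lower, 1.69 to 1.84), with medians of 4 and 7 UMIs per cell. The 10 mitochondrially encoded genes were all within 2-fold with a median log2 ratio of -0.46; mt-Cytb stood at 2185 against 3982 CPM, whereas mt-Co1 stood at 8265 against 5651.

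**Figure D2:**
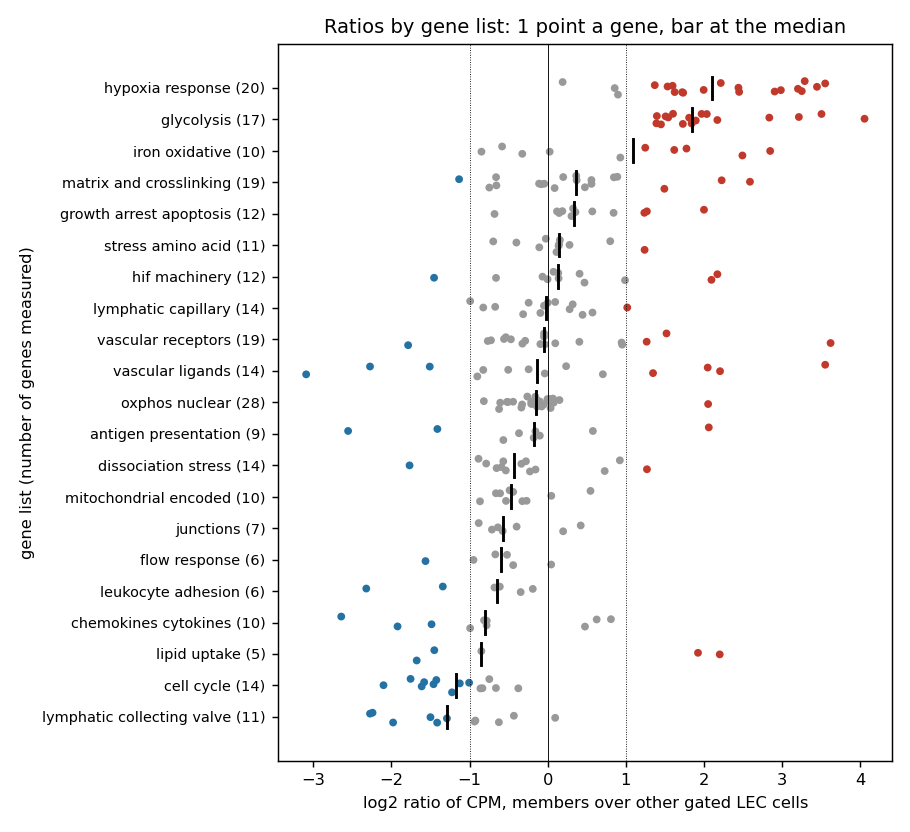
Log2 ratio of CPM, members over other gated LEC cells, for each measured gene (1 point a gene) of the lists with 5 or more measured genes, with a black bar at each median. Red and blue points are at least 2-fold higher or lower, and the hypoxia response and glycolysis lists lie farthest to the right at medians of 2.11 and 1.84.

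Among secreted ligands of vessel growth, 4 of 14 were at least 2-fold higher and 3 lower (median log2 ratio -0.14). Angpt2, a ligand of the Tie2 receptor that destabilises vessels, was 4.14-fold higher (4.01 to 4.27); its UMIs per cell ran to 109 in the members with a median of 8, against a median of 0 in the other cells. The Cd24a and Scn3a class also had a high level, 662 CPM beside 1074 in the members. Vegfa was 11.7-fold higher (9.56 to 14.5) from a low level, 41.6 against 3.54 CPM, with a UMI in 19.7% of members. Apln and Esm1, genes of sprouting tip cells, stood at 42.3 against 9.15 CPM and 74.5 against 29.2, but 44.2% of the Apln UMIs were in 1 cell and both directions turn with how the class is drawn, as given under the processing. Pdgfa was 2.85-fold, Pdgfb 4.84-fold and the vasoconstrictor gene Edn1 8.53-fold lower.

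Of 19 receptors, 3 were at least 2-fold higher and 1 lower. Cxcr4, a chemokine receptor of tip cells, was 12.3-fold higher (14.4 against 1.17 CPM), Plxnd1 2.41-fold and Notch4 2.87-fold higher, and Nrp1 3.45-fold lower, with 42.9% of its few member UMIs in 1 cell. Kdr, the main VEGF-A receptor, stood at 118 against 201 CPM, Tek at 45.3 against 62.7, and Flt1, the receptor of Pgf, at 19.4 against 32.0. Npy receptor RNA was scarce: Npy1r had 0.176 CPM, from 1 UMI, in the members and 0.676 in the others, and Npy2r and Npy5r were at 0 in both groups. Of the other neuropeptides, Nts, neurotensin, was widespread at 4330 against 3575 CPM. Gal, galanin, was at 62.0 against 4.67 CPM (13.3-fold), with a UMI in 7.09% of members and 70.5% of the other cells' UMIs in 1 cell.

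Most matrix genes, 15 of 19, were within 2-fold. The collagen-modifying enzymes P4ha1, P4ha2 and Plod2 were 2.82-fold, 6.02-fold and 4.69-fold higher, and were the 3 genes past 2-fold on the higher side, while the collagen hydroxylase Plod1 and the crosslinking enzyme Loxl2 had log2 ratios of 0.85 and 0.37; Col18a1 was 2.19-fold lower and Fn1, fibronectin, at 945 against 509 CPM.

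Iron and oxidative stress genes were at least 2-fold higher in 5 of 10 cases and lower in none (median log2 ratio 1.09). Fth1, the ferritin heavy chain that stores iron, was the most abundant of them at 25323 CPM against 10651 (2.38-fold, 2.36 to 2.39), and its light chain Ftl1 was at 4965 against 2605 (1.91-fold); both have pseudogenes, as above. Hmox1, which breaks down heme, was 7.21-fold higher (464 against 64.4 CPM), with 15.8% of its member UMIs in 1 cell. Srxn1, Slc40a1 and Tfrc were 3.08-fold, 3.43-fold and 5.63-fold higher, and the antioxidant gene Prdx1 stood at 1602 against 2006 CPM. The fatty acid binding proteins Fabp4 and Fabp5 were 3.80-fold and 4.61-fold higher, whereas Lpl and Cd36 were 3.20-fold and 2.73-fold lower at 7.93 and 3.87 CPM in the members.

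Cell cycle genes stood lower: 9 of 14 were at least 2-fold lower and none higher, with a median log2 ratio of -1.17. This drop lay mainly in the members inside the nearest unsupervised cluster, as given below. Birc5 was at 28.7 against 62.6 CPM and Top2a at 11.98 against 36.6, with 30.9% of the Top2a member UMIs in 1 cell. Leaving out cells with 2 or more cell cycle UMIs turned the ratio of Top2a to 1.46 and of Ube2c to 1.15. Both are among the 8 genes counted for that choice, so a cell left in holds at most 1 UMI of them and the turn is no check. Cells in which 8 cell cycle genes together gave 2 UMIs or more made 10.5% of members and 15.4% of the others, and after thinning 5.95% (3.92 to 8.60%) and 9.35% (8.42 to 10.4%). The Lsr, Postn and Foxp2 class had a like share, 11.1% and 5.30% after thinning, and its cell cycle genes summed to 321 CPM beside 296 in the members. Among 12 genes of growth arrest and cell death, Gadd45a was 4.01-fold higher and Pmaip1 and Bcl2l11, both of cell death, 2.36-fold and 2.41-fold; Cdkn1a was at 460 against 256 CPM. Of 11 genes of the amino acid and unfolded protein response 1, Trib3, passed 2-fold (2.36-fold). Of 14 genes known to respond to tissue dissociation 1 was at least 2-fold higher and 1 lower (median log2 ratio -0.44): Fos was at 2348 against 4051 CPM and Jun at 1441 against 2661, with Hspa1a 2.41-fold higher and Nr4a1 3.41-fold lower.

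Genes that separate kinds of lymphatic vessel stood apart. Of 11 genes of collecting vessels and valves, 6 were at least 2-fold lower and none higher (median log2 ratio -1.29). Gja4, a connexin of valves and collectors, was 4.73-fold lower (4.27 to 5.25; 66.2 against 313 CPM), and the valve transcription factor Foxc2 was 2.67-fold lower. Of 14 capillary genes 13 were within 2-fold (median log2 ratio -0.02), and Cd63 was 2.03-fold higher. Ccl21a, the chemokine that draws dendritic cells to lymphatic capillaries, lay just inside the 2-fold line at 13305 CPM (13210 to 13400) against 26468; its mouse locus has near-identical copies, so that reads could be split. Of 10 chemokine and cytokine genes 3 were at least 2-fold lower, the chemokines Ccl7 and Cxcl9 and the growth factor gene Tgfb2, and the ratio of Ccl7 turned to 1.09 with the cluster in place of the class. Leukocyte adhesion genes were at least 2-fold lower in 2 of 6 cases (Selp 5.001-fold, Icam1 2.54-fold), and 7 of 7 junction genes were within 2-fold, with Cldn5 at 1566 against 2333 CPM and Cdh5 at 421 against 314. Among antigen presentation genes H2-Ab1 was 4.18-fold higher (113 against 27.1 CPM), while its partners H2-Aa and H2-Eb1 were both at least 2-fold lower. By the rule, cells that scored higher for Cd74, Ccl2 and Vcam1, or for Lsr, Postn and Foxp2, were placed among the other cells. The part of this placing in the lower values of this paragraph was not tested.

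Beyond the lists, the 12 genes with the highest ratios included Trdc, the constant gene of the T cell receptor delta chain (chr14:54142851-54148868), 32.6-fold higher (27.5 to 38.8; 125 against 3.83 CPM). A Trdc UMI was found in 20.8% of members, none of which held a Ptprc UMI, and in 1.65% of the others. Mgarp, a mitochondrial protein, was 19.9-fold higher (81.9 against 4.13 CPM), Nipal1 18.2-fold, the polysialic acid enzyme St8sia4 14.1-fold and Prelid2 10.4-fold. Lgals3, galectin-3, was 9.84-fold higher (9.58 to 10.1) and reached 2167 CPM against 220, with a UMI in 80.3% of members and 37.9% of the other cells. The rest of the 12 were Slc2a1, Cd68, Bnip3, Ero1l, Slc16a3 and Hilpda, given above. At the other end Plvap, which forms the diaphragms of endothelial openings, was 6.05-fold lower (5.68 to 6.46; 170 against 1028 CPM) and the proteoglycan gene Bgn 6.77-fold (18.3 against 124 CPM). Pdlim3 was 8.63-fold, Rbp7 6.32-fold, Cmah 6.19-fold, Mfap2 5.65-fold, Clca3a1 5.24-fold, Pcp4l1 4.83-fold, Pgm5 4.62-fold, Clu 4.47-fold and Cthrc1 4.30-fold lower.

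**Figure D3:**
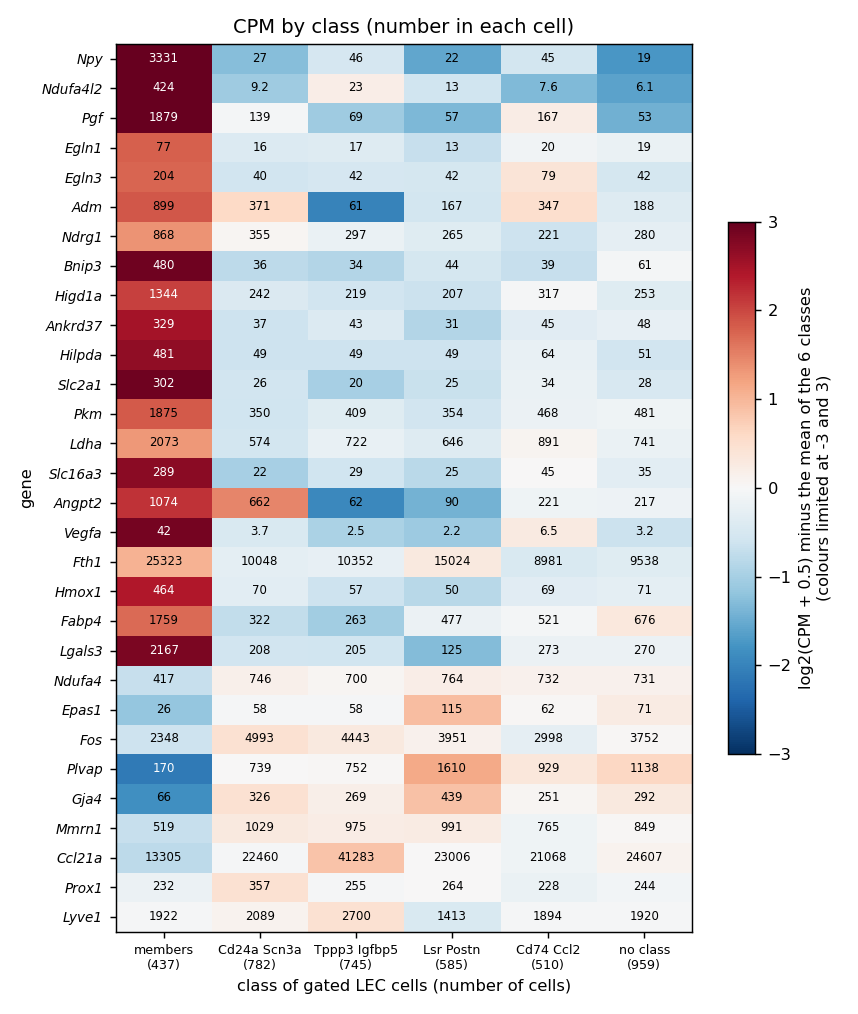
CPM of 30 genes (rows, values printed) in the members, the 4 other classes and the unclassed gated LEC cells (columns, number of cells in brackets), coloured by log2(CPM + 0.5) minus the mean of the 6 groups. Bnip3 reads 480 in the members and 34.0 to 60.7 elsewhere, whereas Angpt2 also reaches 662 in the Cd24a and Scn3a class.

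Each of the other classes was also set beside the members. Bnip3, Slc2a1 and Lgals3 are among the 12 genes ranked by their ratio over these same cells, so their lead is a description. Bnip3 lay between 34.0 and 60.7 CPM in the 4 other classes and the unclassed cells, Slc2a1 between 19.5 and 34.1, Higd1a between 207 and 317, and Lgals3 between 125 and 273; the members had 480, 302, 1344 and 2167. Adm was less separated, at 371 CPM in the Cd24a and Scn3a class and 347 in the Cd74, Ccl2 and Vcam1 class. Egln3 reached 79.1 CPM in the latter. Fn1 stood at 783 CPM in the Cd24a and Scn3a class, beside 945 in the members.

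Levels went with the strength of the score. Over the 93 members with a z up to 1, the 123 from 1 to 2 and the 221 above 2, Bnip3 read 113, 341 and 687 CPM, Slc2a1 76.9, 175 and 449, and Egln3 66.3, 194 and 261. The weakest band was thus already above the other gated cells for Bnip3 (44.0 CPM) and Slc2a1 (26.5), but not for Adm, at 133 CPM against 225 in the other cells, then 564 and 1353. Fth1 read 9064, 13878 and 37141 CPM, so that only the upper bands were above the 10651 of the others. Ccl21a ran the opposite way, at 26706, 16189 and 6849 CPM, and Ndufa4 at 612, 485 and 309. Esm1 had no such order, with 60.1, 197 and 18.5 CPM. These bands are cut from 1 score and are ranges, not cell types.

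**Figure D4:**
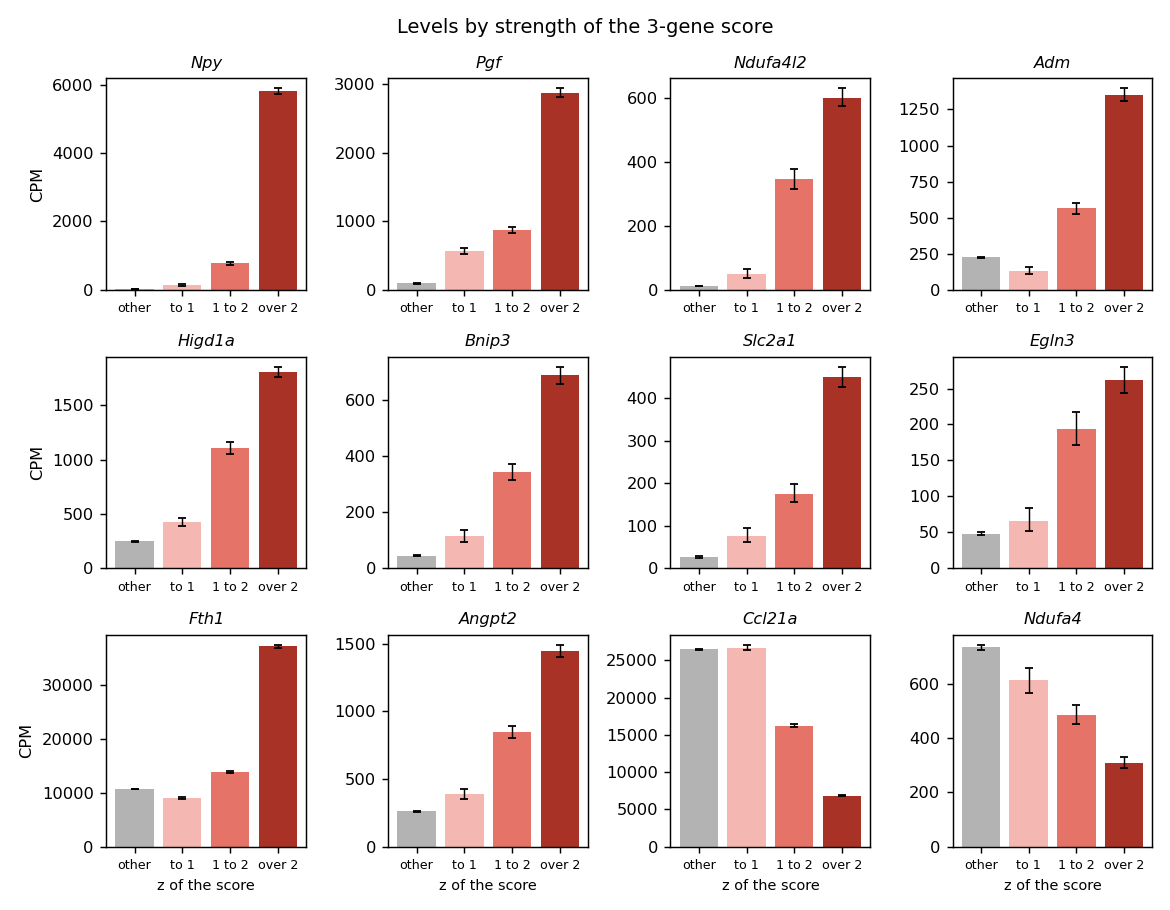
CPM (vertical) of 12 genes in the other gated LEC cells (grey) and in members with a z of 0.5 to 1, 1 to 2 and over 2 (93, 123 and 221 cells); bars are CPM of summed UMIs with 95% Poisson intervals. Bnip3 goes from 113 to 687 over the bands, while Ccl21a goes from 26706 to 6849.

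An unsupervised grouping drew the class more tightly. Leiden clustering of the gated cells over 2000 variable genes gave 16 clusters, and the one with the highest class score had 251 cells, of which 221 were members (88.0%). These 221 were 50.6% of all members, 183 of them with a z over 2; the next cluster by members held 99 of them among 399 cells. Members inside the cluster had a median of 12499 UMIs and those outside it 10397.5. Clusters were built from these same genes, so the values below describe them.

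Members in the cluster carried most of the signal. Npy was at 5577 CPM in them and 743 in the 216 members outside, Adm at 1403 and 318, Slc2a1 at 471 and 106, Vegfa at 70.1 and 8.72, and Hmox1 at 730 and 158. Members outside were still above the other LEC for Bnip3 (4.99-fold), Slc2a1 (4.001-fold) and Higd1a (3.03-fold). Ndufa4l2 differed least of the class genes, at 487 and 351 CPM. Ferritin and several vessel genes split the members. Fth1 stood at 38549 CPM inside the cluster and 10080.5 outside, where it was 0.95 times that of the other LEC. Ccl21a read 5283 and 22549 CPM, Sparc 123 and 947, Epas1 10.9 and 44.0, and Prox1 187 and 283. Esm1 was at 21.1 and 136 CPM and Apln at 9.54 and 80.0, so their excess lay outside the cluster, as did that of the macrophage gene Lyz2 (8.22 and 30.3 CPM). Pf4 was at 22.7 and 58.8 CPM, above the other LEC on both sides (1.89-fold inside the cluster and 4.90-fold outside), and Cd68 at 160 and 51.2. The 14 cell cycle genes were low mainly inside the cluster. Their ratios over the other LEC ran from 0.0149 (Ccnb1) to 0.702 (Pcna) inside it, and from 0.397 (Mcm2) to 1.20 (Ccnb2) outside. Birc5 had ratios of 0.0525 inside and 0.927 outside. Only Mcm2 was lower outside than inside, where its ratio was 0.455.

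**Figure D5:**
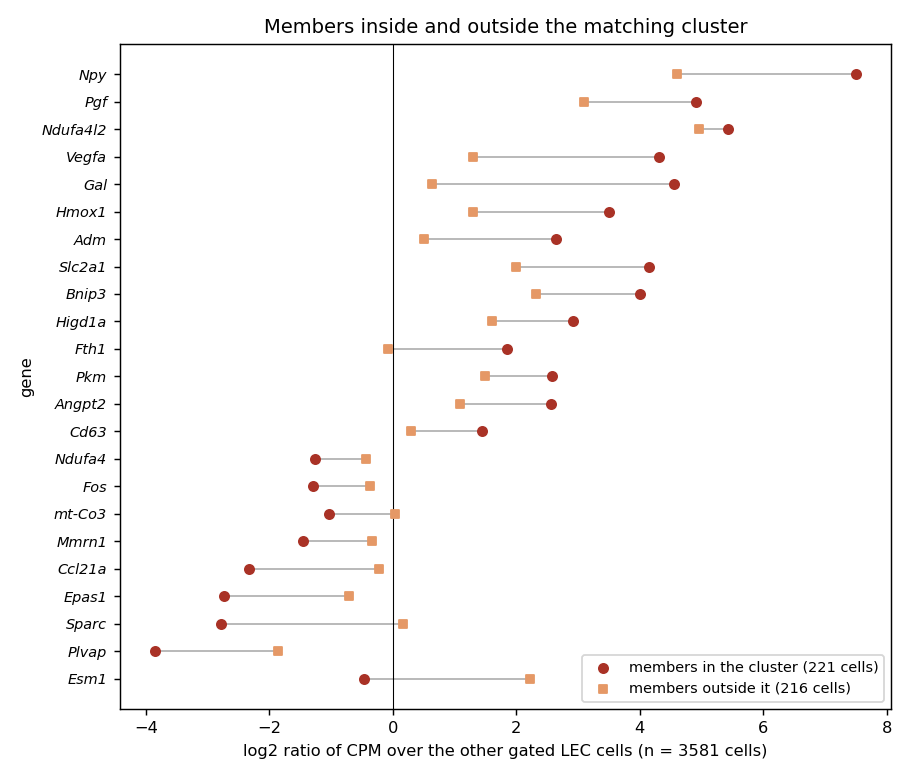
Log2 ratio of CPM over the 3581 other gated LEC cells for 23 genes, with members in the matching cluster (221 cells, circles) and members outside it (216 cells, squares). Npy, Adm and Slc2a1 are higher inside, Fth1 is above 0 inside only, and Esm1 is high outside only.

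A score of the same 3 genes marked some blood endothelial cells, shown side by side with no comparison drawn between the sorts. Its z scale was set over the gated BEC cells alone, and it did not have to be the highest of the 5 sets. The cut is therefore not the one that chose the members. Gated BEC-sort cells had no lymphatic UMI, few stromal UMIs and a UMI of Pecam1, Cdh5 or Kdr. The pigment limit and the C1qa and C1qb limit of the lymphatic cells also applied. These BEC cells numbered 2976, and 307 of them had the 3-gene score over 0.5. These carried Pgf at 412 CPM and Ndufa4l2 at 33.4, but Npy at 1.505 CPM. Of 14 measured hypoxia response genes 4 were at least 2-fold higher in them than in the other 2669 BEC cells (median log2 ratio 0.68), and of 15 glycolysis genes 5 (median 0.74), where 1.88% of 7558 genes were at least 2-fold higher and 1.11% lower. Bnip3 read 66.2 against 10.6 CPM, Adm 413 against 104, Egln3 46.2 against 2.13, Slc2a1 118 against 55.7, and Gal 63.6 against 0.277. Ndufa4 stood at 493 against 734 CPM, and Fth1 at 2297 against 1935.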

How the data were processed

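RNA of single endothelial cells was measured by 3′ tag counting. The authors deposited 1 matrix of raw UMI counts, 28692 gene symbols by 7635 cells, made with Cell Ranger 2.1.1 on build mm10 per the submitters' processing notes. The filter on cells and the treatment of doublets are not given in the sources used here, and no doublet caller was run. The gate, scores and threshold of 0.5 are given above; the members and the gene lists were chosen with earlier results of these data known.

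UMIs were summed over members and over the other gated cells and expressed as CPM. Each CPM has an exact Poisson interval, each ratio an exact conditional binomial interval and each share a Clopper-Pearson interval, at 95%. A sum of 0 was put at a floor of 3 counts per group (0.528 CPM in members, 0.0676 CPM in the others). The ratio and class steps were tested on simulated data. For thinned shares each cell was reduced to 5000 UMIs; no cell was too shallow. Named were the genes of the 5 scores, every measured gene of 2 lists (HIF machinery, hypoxia response), the 4 most abundant of each of the 20 other pathway and 12 marker lists, and the 12 highest and 12 lowest ratios at 50 CPM or more with no cell holding over 10% of a group's UMIs; other list genes were named after their values were seen. The ranking left out mitochondrial, ribosomal protein, haemoglobin and Gm or Rik model genes. For the BEC comparison a limit of 5 UMIs summed over Rgs5, Pdgfrb, Col1a1, Col1a2 and Col3a1 was added after mural cells were seen to enter. Clusters used 2000 variable genes, 30 principal components, 15 neighbours and resolution 1 in scanpy 1.11.5 with python-igraph 0.11.9 and scikit-learn 1.9.0. Sums and intervals used scipy 1.17.1 and numpy 2.4.6, tables pandas 2.3.3 and figures matplotlib 3.10.9, all under Python 3.11.15. Gene positions are from GENCODE M21 on GRCm38 and promoters from RefSeq on GRCm38.p6.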

Additional observations from a re-analysis of the deposited data

Results flagged for a closer look

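Cells of the LEC sort that did not pass the gate, which no comparison above uses, also held RNA of the class genes. Over 388 such cells Npy stood at 52.7 CPM, Ndufa4l2 at 6.08 CPM and Pgf at 114 CPM, above the 0.326 CPM that a count of 3 would make. A Npy UMI was found in 51 of them (13.1%, 9.95 to 16.9%) and 15.7% of the Npy UMIs were in 1 cell. Dct stood at 13746 CPM in these cells. Whether any of them are endothelial was not tested.

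Pdgfa, a ligand of pericyte and fibroblast receptors, ran in opposite directions in the 2 sorts. It was 2.999-fold higher (2.54 to 3.53; 28.2 against 9.395 CPM) in the BEC cells with the score over the threshold, and 2.85-fold lower (2.38 to 3.43; 22.2 against 63.2 CPM) in the members. The BEC cells and the members were cut by different rules, as given above, and the difference between the sorts was not tested.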

How the results depend on the processing

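The class held 437 cells as reported, 251 as the nearest Leiden cluster and 231 without members that also scored over 0.5 for another set; the last choice, and leaving out barcodes found in both sorts, were added after seeing the data. Other settings gave 344 to 562 members. The 148 higher and 131 lower genes became 255 and 374 with the cluster, 1262 and 1468 with no minimum level, 350 and 466 at 10 CPM, and 86 and 67 at 100 CPM, where more or fewer genes were tested; without Npy in the score, 69 genes were lower, and the cause was not tested. Hypoxia response genes at least 2-fold higher numbered 10 of 12 at 100 CPM, and glycolysis genes 13 to 20 over all settings. With the cluster in place of the class, the ratio of Apln turned to 0.752, Lyz2 to 0.834, Itga2b to 0.837, Esm1 to 0.540, Ccl2 to 1.44 and Ccl7 to 1.09. Without Pgf in the score, Apln turned to 0.365 and Col3a1 to 1.17, and thinning turned Col3a1 to 1.25, which rests on few UMIs. Without cells that had 2 or more UMIs of 8 cell cycle genes, Ube2c turned to 1.15 and Top2a to 1.46, both being among those 8 genes. Of 129 named or list genes at least 2-fold apart, 111 to 129 remained so by setting (120 of the 128 with a value without cycling cells). Median-of-ratios size factors divided out a median log2 ratio of -0.07, which raised every log2 ratio by the size of that shift, and gave 170 higher and 113 lower genes. No paired analysis was possible because the columns carry no library number, and for the same reason leaving out a library was not run. A count of 3 made 0.528 CPM in the members, so genes near that level could not be compared.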

Other observations

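Several genes outside the lists, chosen after their values were seen, stood high in the members. Mif, a secreted cytokine that is a known HIF target, was 5.10-fold higher (4.98 to 5.22; 2012 against 395 CPM), with a UMI in 92.7% of members. Nmb, the neuropeptide neuromedin B, was 4.12-fold higher (4.002 to 4.24; 1233 against 299 CPM) and was found in 75.5% of members and 42.6% of the other gated cells. The metallothioneins Mt1 and Mt2, which bind zinc and copper, were 8.13-fold and 4.73-fold higher. Stc1 and Angptl4, secreted proteins known to respond to low oxygen, were 2.72-fold and 2.67-fold higher, and Inhbb, a subunit of activin, 7.52-fold. Eif4ebp1, which holds back translation, stood at 893 against 232 CPM.

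On the lower side, Ccnd1, the G1 cyclin D1, was 3.52-fold lower (47.0 against 166 CPM). Cav1, which builds caveolae, stood at 251 against 587 CPM, Igfbp7 at 647 against 1504, and Lbp, which binds bacterial lipopolysaccharide, at 183 against 611.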
